A study of Mus musculus with 16 samples.

Results

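The cytosolic chaperonin TRiC, also named CCT, is built from the products of Tcp1, Cct2, Cct3, Cct4, Cct5, Cct6a, Cct7 and Cct8. These 8 subunit genes and Pdcl, a phosducin-like partner of the complex, were taken by symbol from the deposited table of all genes, so that 9 of its 25905 genes are described. The retinas came from the right eyes of wild type male C57BL/6 mice labelled as 10 weeks old, 8 of a flight group housed aboard the International Space Station and 8 of a ground control group kept on Earth in matching hardware. The study's methods give that age for the mice that were sent up; they flew for just over a month, came back alive and were older when tissue was taken after landing. All 9 genes were found in the table, and each had a mean normalized count above 10. The measurement used for them was the authors' mean read count over all libraries after scaling for library size. It is a level of the whole set of retinas with no spread and no replicate number. The authors' comparison of the groups was not used, and the value columns of single libraries carry codes that match no sample label. Levels of single libraries, their depth and the difference between flight and ground control were for these reasons not analysed here.

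TRiC is a barrel of stacked rings in which each subunit type has its own place, and it closes over unfolded proteins with the energy of ATP. Actin, the tubulins and proteins built as beta propellers, among them the beta subunits of G proteins, are its best known clients. Pdcl, also known as phosducin-like protein 1, binds a newly folded G protein beta subunit on the chaperonin and helps it meet its gamma subunit. In rods this route supplies the beta and gamma subunits of transducin, the G protein that carries the light signal onward.

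The subunit genes lay within a narrow range of each other and among the more highly read genes. Tcp1, the alpha subunit after which the complex is named, had a mean normalized count of 1447, and Cct7, the eta subunit, had 620.5. Per kilobase of transcript, the scale on which genes of different length are compared, Tcp1 had 592 reads and Cct7 had 254, a ratio of 2.33. The median of the 8 subunits was 443 reads per kilobase of transcript, against 71.4 for the 9782 genes with 1 counted feature, a known transcript length and a mean normalized count of 10 or more.

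Promoter sequences of both ends of this range, of Cct5 and of Pdcl are shown, because they carry the motifs described further on and let the subunits be set beside their partner. Each is the stretch of 250 bases before the RefSeq start site on build GRCm38.p6, written 5′ to 3′ in the direction of the gene. Capitals mark matches to a CCAAT box (CCAAT or ATTGG), a GC box (GGGCGG or CCGCCC) and a heat shock element pair (GAANNTTC or TTCNNGAA). Tcp1 is at chr17:12916079-12916328 on the plus strand, and its annotated transcript starts 53 bases past the RefSeq start site. Cct7 is at chr6:85451255-85451504 on the plus strand, with the transcript start 9 bases past that site. Cct5 is at chr15:31601847-31602096 on the minus strand, with the transcript start 42 bases past the site. Pdcl is at chr2:37359333-37359582 on the minus strand, where both starts are the same base.
Tcp1: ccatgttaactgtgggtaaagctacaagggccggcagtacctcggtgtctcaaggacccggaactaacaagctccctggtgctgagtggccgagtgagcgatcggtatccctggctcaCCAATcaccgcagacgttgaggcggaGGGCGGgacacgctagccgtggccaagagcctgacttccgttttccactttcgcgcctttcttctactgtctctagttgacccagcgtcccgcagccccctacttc
Cct7: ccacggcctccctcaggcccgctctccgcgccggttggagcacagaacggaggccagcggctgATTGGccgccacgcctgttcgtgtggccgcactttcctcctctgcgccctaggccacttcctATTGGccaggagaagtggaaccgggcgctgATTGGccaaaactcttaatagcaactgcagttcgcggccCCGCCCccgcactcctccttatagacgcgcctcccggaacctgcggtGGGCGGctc
Cct5: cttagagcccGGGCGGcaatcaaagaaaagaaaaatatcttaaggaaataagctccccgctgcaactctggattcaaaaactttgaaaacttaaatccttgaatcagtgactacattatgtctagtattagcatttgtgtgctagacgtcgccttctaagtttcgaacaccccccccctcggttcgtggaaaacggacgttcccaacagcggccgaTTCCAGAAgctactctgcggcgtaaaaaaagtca
Pdcl: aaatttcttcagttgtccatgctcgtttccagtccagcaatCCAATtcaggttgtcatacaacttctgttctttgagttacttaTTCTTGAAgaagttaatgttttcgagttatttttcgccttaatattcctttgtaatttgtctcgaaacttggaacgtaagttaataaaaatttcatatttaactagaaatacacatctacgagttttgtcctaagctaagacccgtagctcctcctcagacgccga

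Among the subunits the order by mean normalized count ran from Tcp1 through Cct4, the delta subunit, with 1213, to Cct8, the theta subunit, with 1031. Cct5, the epsilon subunit, followed with 1011, and Cct2, the beta subunit, with 894. The lower end was formed by Cct3, the gamma subunit, with 776, by Cct6a, the zeta subunit, with 673, and by Cct7. CCT2 is a gene of inherited photoreceptor disease in humans, and inherited sensory neuropathies are known for CCT5 in humans and for Cct4 in the rat.

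Scaling by length changed part of that order. Per kilobase of transcript, Cct5 had 546 reads and moved from rank 4 to rank 2, behind Tcp1. Cct4 came next with 488 reads per kilobase, then Cct2 with 456 and Cct8 with 431. Cct3 had 392 and Cct6a 274 reads per kilobase, so that Cct6a and Cct7 closed the order on both scales. With a shorter transcript model Cct6a had 421 reads per kilobase and stood above Cct3 at rank 6. That model of 1599 bases holds little beyond its reading frame of 1596, while the other subunits kept their full transcripts. With coding length for all subunits Cct6a was at rank 7, so its place depends on the lengths compared. As the table gives 1 mean per gene and no spread, whether neighbours in this order differ beyond their error was not tested.

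The coding regions of the subunits are of nearly the same length, from 1596 bases in Cct6a to 1668 in Tcp1, whereas their transcripts range from 1853 bases in Cct5 to 2484 in Cct4. Per kilobase of coding region the order was that of the counts, with 868 reads in Tcp1 and 380.2 in Cct7, a ratio of 2.28. The coefficient of variation over the 8 subunits was 29.1% for the counts, 27.9% per kilobase of transcript and 28.2% per kilobase of coding region. Spread among the subunits was thus about the same on the 3 scales.

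**Figure D1:**
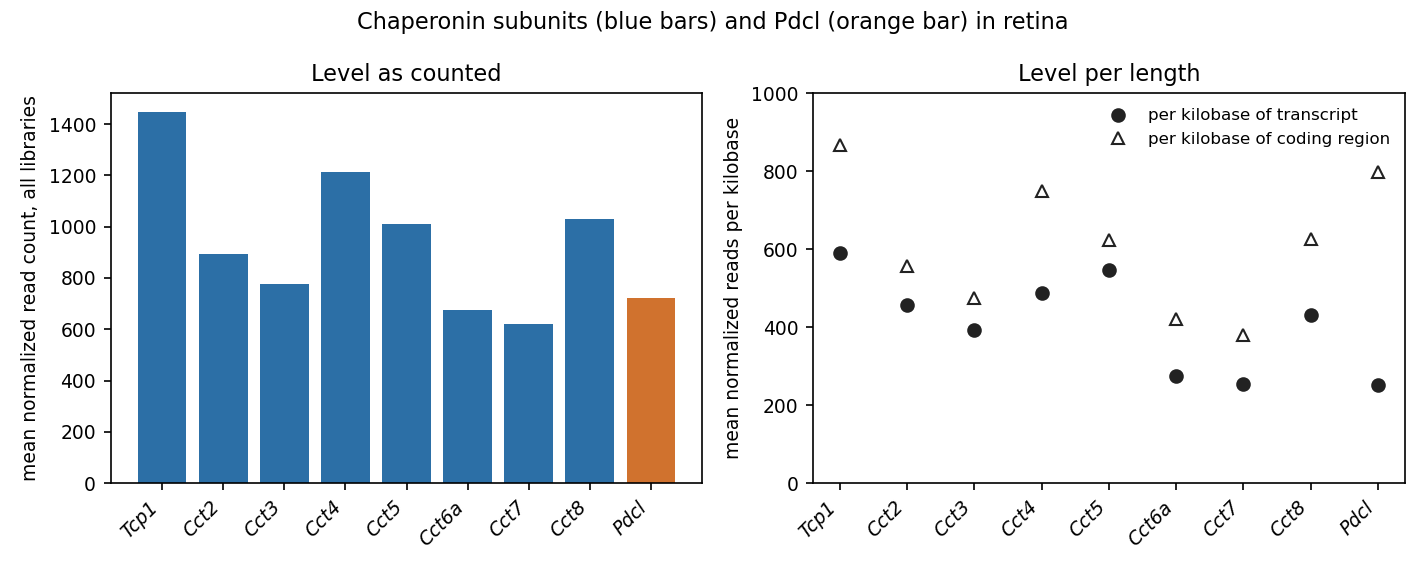
Levels of the 8 subunit genes and Pdcl, with the mean normalized read count over all libraries as bars on the left and reads per kilobase of transcript (circles) or of coding region (triangles) on the right. No error bars are drawn, as the values are the authors' means; Tcp1 is highest among the subunits and Cct7 lowest on each scale, and Pdcl at 252 and 798 reads per kilobase has the widest gap between the scales.

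Pdcl had a mean normalized count of 721, with 2 subunits below it. Its transcript is the longest of the 9 at 2858 bases, of which 1760 lie behind the coding region, and its coding region of 903 bases is the shortest. Per kilobase of transcript it had 252 reads, under all 8 subunits and 0.569 of their median. Per kilobase of coding region it had 798 reads, above 7 of the 8 subunits and 1.35 times their median. The standing of Pdcl against the complex therefore depends on which length is used.

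Set among the 12374 genes with a mean normalized count of 10 or more, the subunits lay between the percentiles 80.5 (Cct7) and 93.2 (Tcp1), with a median of 87.9, and Pdcl lay at 83.4. Together the 8 subunits held 0.11% of the normalized reads of all genes. The genes next to Tcp1 in mean normalized count were Syt4 below and Lyst above, with 1449.5. Cct8 stood between Rab7 and Phf2, and Cct5 between Sart1 and Bcl2l2. Cct2 had Timp2 and Golim4 as neighbours, Cct3 had Tmx2 and Klc1, Cct6a had Kcna2 and Zfp521, and Cct7 had Snap47 and Brd7. Pdcl stood between Ppp4r2 and Psmd4. These neighbours share a count and nothing further was compared.

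How the reads were assigned bears on every level given here. Reads were counted for RefSeq transcripts, and the count table lists 1 feature for 22086 genes of the table and several for 3794. Genes with 1 feature had a median of 12.9 mean normalized counts, and 51.7% of them reached 10. Genes with several features had a median of 0.806, and 24.6% of them reached 10. Each of the 9 members has 1 feature, so the members belong to the class with the higher levels. The part of the number of features in these levels was not tested.

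**Figure D2:**
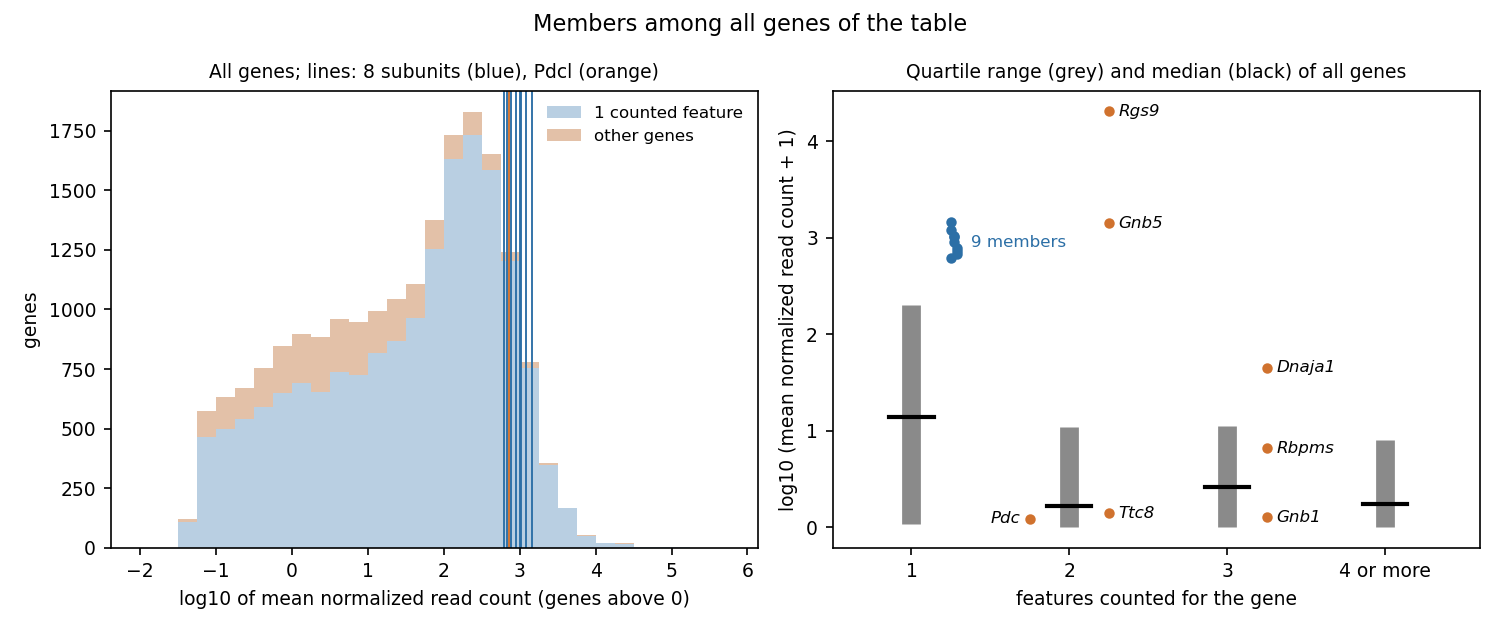
Left, histogram of log10 mean normalized read count of all genes above 0, split by the number of counted features, with lines for the 8 subunits and Pdcl. Right, log10 of the count plus 1 by number of features, with the quartile range in grey, the median in black and named genes as points: the 9 members lie above the upper quartile of 201 for genes with 1 feature, while Pdc and Gnb1 lie near 0 and Rgs9 and Gnb5 do not.

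The identity of the counted reads was examined through the transcripts. No stretch of 75 bases, the length of a read, was shared in the same orientation between a member's transcript and a transcript of any other gene annotated in GENCODE M21, pseudogenes included. Only exact matches over that full length were sought, so shorter trimmed reads and reads mapped with mismatches were not covered. In the opposite orientation 4 members share stretches with a neighbour on the other strand. For Tcp1 these are 21.1% of its stretches, all of them with Acat3, which had a mean normalized count of 3.67, and 240 of the 500 also with Acat2, which had 91.0. For Cct6a they are 15.9%, with Psph at 149.9, for Cct8 5.09%, with Usp16 at 329.8, and for Cct7 5.96%, with Pradc1, a symbol without a row of its own. The libraries keep the strand, but whether the counting used it is not given in the sources used here. Whether reads of these stretches were counted for the member, for its neighbour or for neither was not tested.

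The 9 genes are spread over 9 chromosomes in GRCm38. Tcp1 is on chromosome 17, Cct2 on 10, Cct3 on 3, Cct4 on 11, Cct5 on 15, Cct6a on 5, Cct7 on 6, Cct8 on 16 and Pdcl on 2. Subunit transcripts have between 11 exons (Cct5) and 16 exons (Cct2), and Pdcl has 4. Cct6a is annotated in GENCODE M21 without a coding region. Its transcript length of 2454 bases is that of its longest model, its coding length is the longest reading frame of another model of 1599 bases, and its values per kilobase are less certain for that reason.

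Translated coding regions showed how far the subunits have parted. Over the 21 pairs of the 7 subunits with an annotated coding region, between 27.8% (Cct2 and Cct8) and 38.7% (Cct4 and Cct5) of the aligned positions were identical, with a median of 33.8%. Tcp1 was closest to Cct7, with 36.9%. The 7 pairs with Cct6a, from its unannotated reading frame, had 23.7% (Cct8) to 30.4% (Cct5). Against Hspd1, the chaperonin of mitochondria, the same 7 subunits had 21.4% to 26.8% identical positions. The encoded proteins have 532 to 556 residues in the 8 subunits and 301 in Pdcl. Acidic residues made up 11.7% to 14.6% of the subunits and 19.6% of Pdcl.

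**Figure D3:**
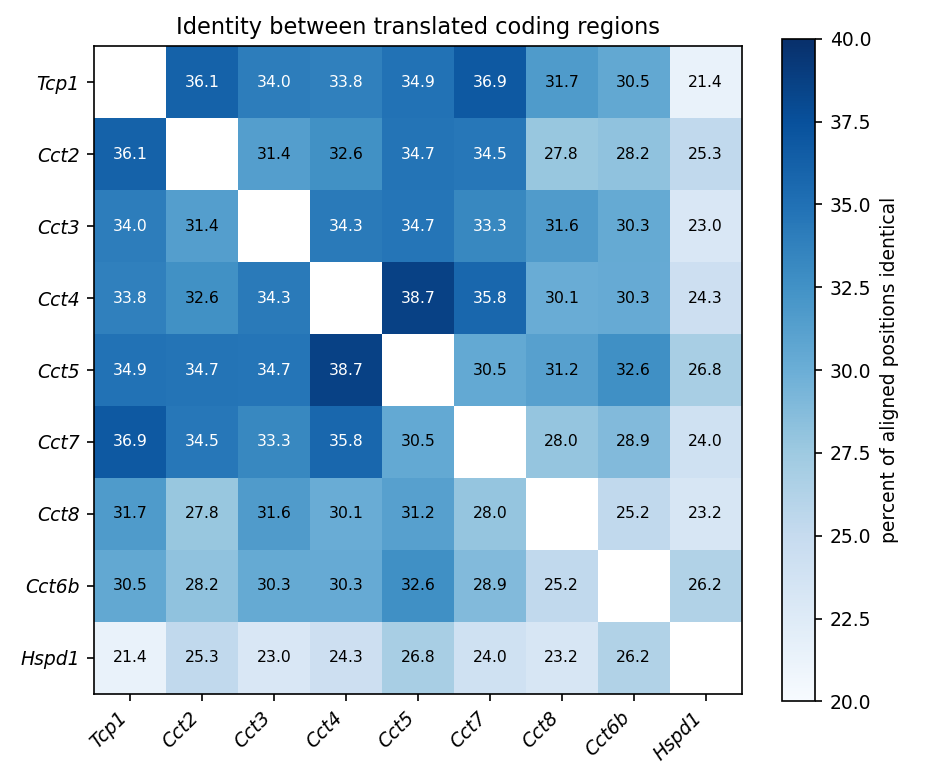
Percent of aligned positions that are identical between translated coding regions of 7 subunits, the paralog Cct6b and mitochondrial Hspd1, with darker blue for higher values. Cct4 and Cct5 form the most similar subunit pair at 38.7%, and the row of Hspd1 lies between 21.4% and 26.8% for the subunits.

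Cct6b, a subunit paralog known from testis, was the closest relative of a subunit among the genes aligned. Its mean normalized count was 3.49, or 1.95 reads per kilobase of transcript, and Cct6a had 141 times as many reads per kilobase, or 216 times with its shorter model. Both have 1 counted feature. Identity to Cct6a was 75.9% in the reading frame used here, which the annotation does not mark as coding.

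The promoter windows of RefSeq, from 250 bases before to 50 bases after a start site, covered 8 of the 9 members with 10 windows, and Cct4 had no entry. Cct2 and Cct5 have 2 windows each. A GC box stood in 8 of the 9 subunit windows and in all 7 subunit genes with an entry, and Pdcl had none. Of all 32851 windows 35.7% hold a GC box, and of the 10268 windows of genes with a mean normalized count of 10 or more 62.7% do. The GC content of the subunit windows had a median of 60.3%, near the 61.3% of those 10268 windows, whereas the window of Pdcl had 40%. In the sequences printed above the GC boxes of Tcp1 and Cct7 lie within 106 bases of the start, and that of Cct5 lies 240 bases before it.

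CCAAT boxes were found in Tcp1, Cct3, Cct6a, Cct7 and Pdcl, and in no window of Cct2, Cct5 or Cct8. The printed Cct7 sequence has 3 of them, all as ATTGG and starting 187, 125 and 95 bases before the start site. Of all windows 37.4% hold a CCAAT box, and of windows of genes at 10 or more 37.6% do. A heat shock element pair was found in 4 of the 10 windows, and 15.1% of all windows and 11.5% of windows of genes at 10 or more hold one. Pdcl has it 166 bases and Cct5 34 bases before the start site, as the capitals TTCTTGAA and TTCCAGAA show. In Cct2 the second window holds it 42 bases before the site, and in Cct6a it begins at base 25 after the site. Those windows lie away from the starts of the transcripts used for length, which are 439 bases before the site of the second Cct2 window and 358 bases before that of Cct6a. The short motif CCGGAAG or CTTCCGG, the core bound by ETS factors, was added after the sequences had been seen. It stood in Tcp1, Cct2, Cct8 and Pdcl, and in 8.86% of all windows and 16.1% of windows of genes at 10 or more. No match of one motif shared a base with a match of another in these windows. A match names letters in the window and is not evidence of a bound factor.

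**Figure D4:**
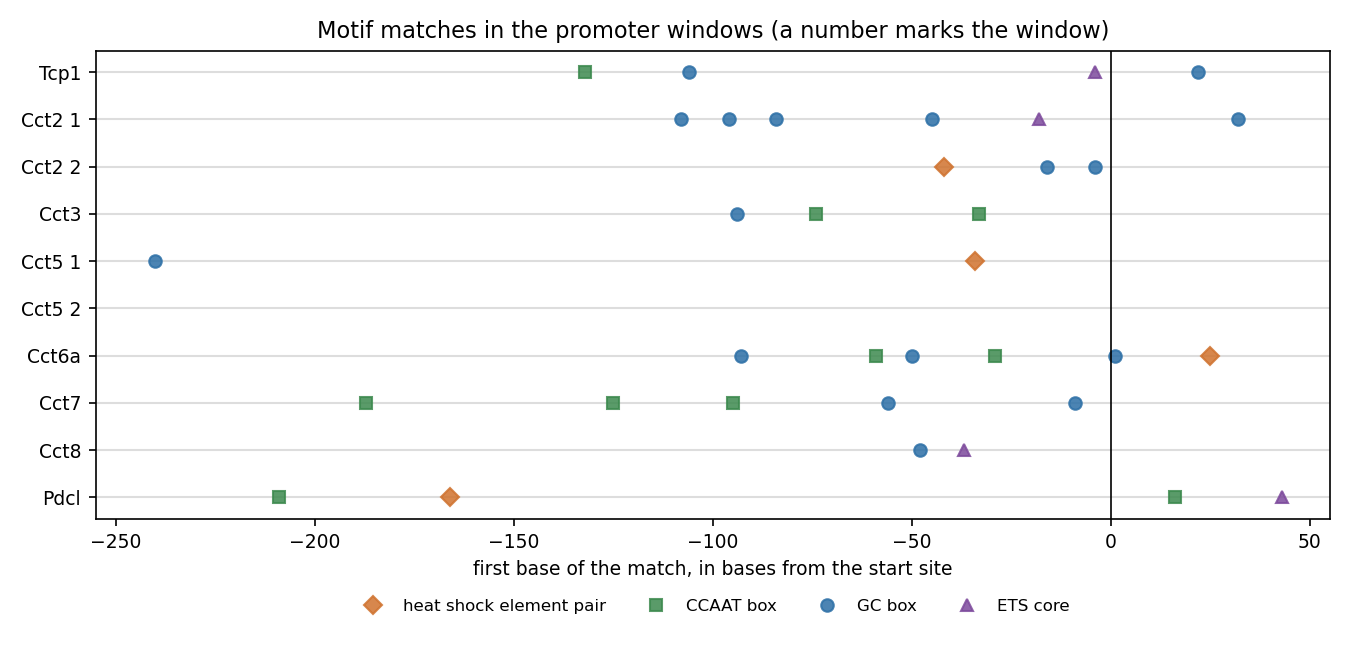
First base of each motif match in the 10 promoter windows of 8 members, in bases from the start site, with a marker for each of the 4 motifs. GC boxes (circles) appear in every subunit gene plotted and not in Pdcl, and heat shock element pairs (diamonds) in Pdcl, Cct5, Cct6a and Cct2.

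Pdcl belongs to a family of phosducin-like proteins with separate tasks. Pdcl3, which is known to work with the chaperonin on actin and tubulin, had a mean normalized count of 379 and 96.7 reads per kilobase of transcript, so that Pdcl had 2.61 times as many. Per kilobase of coding region Pdcl had 1.52 times the reads of Pdcl3. Pdcl2, known from the germ line, had a mean normalized count of 0.160 from 1 feature. Phosducin itself, Pdc, is abundant in photoreceptors and yet had a mean normalized count of 0.225. Pdc has 2 counted features, and its value is not read here as its level in the retina. Of the family Pdc is closest to Pdcl, with 45.9% identical positions, against 28.8% for Pdcl3 and 26.0% for Pdcl2.

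Prefoldin, the complex that hands unfolded actin and tubulin to TRiC, has 6 subunit genes in the table. The 4 with 1 counted feature were Pfdn5 with 1368 reads per kilobase of transcript, Vbp1 with 289, Pfdn1 with 262 and Pfdn2 with 209. Their range of 6.55 times, with Pfdn5 far above the rest, was wider than the 2.33 times of the TRiC subunits. Their median of 275 reads per kilobase was below the 443 of TRiC. Per kilobase of coding region the direction turned, with a median of 789 for prefoldin and 590.0 for TRiC, and the prefoldin range was 4.02 times. That range also came from Pfdn5 at 3143 reads, while Pfdn1, Pfdn2 and Vbp1 had 794, 784 and 783. Pfdn5 alone of the 4 exceeded Tcp1, and loss of its function is known to cause photoreceptor degeneration in the mouse. Pfdn6, listed as H2-Ke2, and Pfdn4 have 2 features each and had mean normalized counts of 64.2 and 0.433.

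The G protein clients and their partners form the list that ties TRiC to vision. The 4 highest of its 12 genes by mean normalized count were Gnat1, the rod transducin alpha subunit, with 154477, Rgs9 with 20418, Rgs9bp with 10374 and Gngt1, the rod transducin gamma subunit, with 7348. Gnat1 had 112 times the reads of Tcp1 per kilobase of transcript and 169.6 times per kilobase of coding region. All 8 genes of the list with 1 feature reached a mean normalized count of 10, with a median of 938 reads per kilobase of transcript and 2675 per kilobase of coding region. The lowest value was 0.266 for Gnb1, the beta subunit of rod transducin, which has 3 counted features.

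Beta subunits, the clients that Pdcl accepts from the chaperonin, are given in full, a choice made after their values were seen. Gnb3, the beta subunit of cone transducin, had 769 reads per kilobase of transcript, and Gnb5, the partner of Rgs9, had 672 with 2 features. Gnb2 had 279 and Gnb4 had 3.78 reads per kilobase. With Gnb1 near 0, the summed reads of the beta subunits cannot be set against those of Pdcl. Gngt2, the gamma subunit of cones, has 2 features as well and had a mean normalized count of 4.02.

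All 13 genes of the tubulin and actin list have 1 counted feature, and all reached a mean normalized count of 10. By that count the highest were Actb with 5859, Tubb5 with 4388, Tubb4a (listed as Tubb4) with 3198 and Tuba1a with 2910, and the lowest was Tuba1c with 12.1. Per kilobase of transcript Actb had 5.16 times and Tubb5 2.80 times the reads of Tcp1. The median of the list was 674 reads per kilobase of transcript, against 592 for Tcp1, the highest subunit of TRiC. On the other scales it lay below Tcp1, with 806 against 868 reads per kilobase of coding region and a mean normalized count of 1076 against 1447. The 5 tubulin cofactors, which take folded tubulin on to the dimer, had a median of 147 reads per kilobase, from 83.6 for Tbcd to 379 for Tbca, with Tbce at 102, Tbcc at 147 and Tbcb at 204.

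Chaperonin-like proteins related to TRiC build the BBSome, a coat complex for traffic into cilia such as the photoreceptor outer segment. The highest of the 10 genes by mean normalized count were Bbs7 with 2131, Bbs4 with 1095, Bbs1 with 821 and Bbs2 with 765, and the lowest was Ttc8 with 0.388. Per kilobase of transcript Bbs7 had 793 reads and exceeded Tcp1, and Bbs4 had 435. Of the chaperonin-like genes, a group singled out after its values were seen, Bbs12 had 56.8 and Bbs10 44.8 reads per kilobase. These were the lowest values among the 7 genes of this list with 1 feature. Mkks, with 2 features, had 2.54, and its value is not read here as its level. Bbs9 with 0.456 and Ttc8 with 0.171 reads per kilobase, also with 2 features, were lower still. All 3 genes of this list with several features, Mkks, Bbs9 and Ttc8, had a mean normalized count under 10, and all 7 with 1 feature were above it.

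The mitochondrial chaperonin was placed against TRiC on both lengths. Hspd1 had 486 and its lid Hspe1 had 501 reads per kilobase of transcript, a ratio of 0.970, and both lay between Tcp1 and Cct2. Per kilobase of coding region Hspd1 had 686 and Hspe1 1268 reads, a ratio of 0.541, and Hspe1 then exceeded Tcp1. Of the 5 cytosolic chaperones that pass clients on, Hsp90aa1, Hspa8 and Hsp90ab1 were above every TRiC subunit. Hsp90aa1 had 10.2 times and Hspa8 6.30 times the reads per kilobase of Tcp1. Hsp90ab1 had 2061 reads per kilobase, and Hspa4 had 363, within the range of the TRiC subunits. Dnaja1, with 3 counted features, had 7.82.

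**Figure D5:**
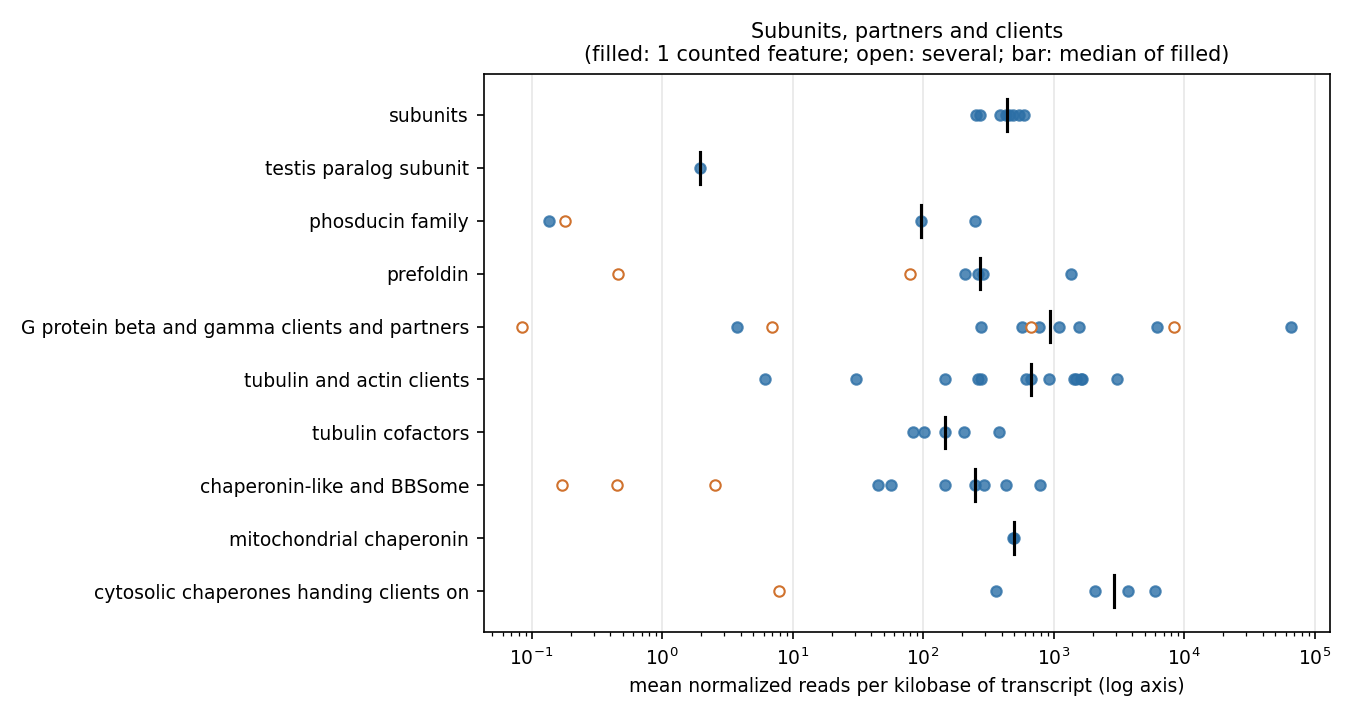
Reads per kilobase of transcript, on a log axis, for each gene of the TRiC subunits, their partners and their clients, with filled points for genes with 1 counted feature, open points for genes with several and a bar at the median of the filled points. The subunits lie between 254 and 592, the tubulin and actin clients have a median of 674 and the cytosolic chaperones a median of 2894.

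Markers of retinal cell types were read in the labelled tissue. A mean normalized count of 10 was reached by 47.8% of all 25905 genes and by 51.7% of those with 1 feature. Reaching 10 alone therefore does not identify the tissue. Among rod markers Sag had a mean normalized count of 29757, Pde6a of 23335 and Nr2e3 of 3390, and Nrl, with 2 features, had 88.9. Of 7 cone markers 5 reached 10, led by Opn1sw at 2799.9, and of 6 bipolar markers 5 did, led by Prkca at 4239. Of 5 markers each, 4 reached 10 for Muller glia, led by Glul at 17455, and 4 for ganglion cells, led by Nefl at 2999. All 5 amacrine markers, led by Gad1 at 2415, and all 3 horizontal cell markers, led by Calb1 at 505, did as well. The markers below 10 in these lists, Gngt2, Pde6c, Pcp2, Rlbp1 and Rbpms, each have several counted features.

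Markers of tissue next to the retina were read as well, and so were markers of microglia and endothelium. Of the 5 pigment epithelium markers 4 reached 10, with Ttr highest at 540.04, Rpe65 at 121 and a summed level of 858 for the 5. Best1, with 1 counted feature, had 2.72. All 5 lens markers reached 10, with Cryaa at 898 and a sum of 1494, and all 4 melanocyte markers did, with Dct at 364 and a sum of 567. The 3 microglia markers summed to 101. Of the 3 endothelial markers 2 reached 10, Kdr at 1359 and Cldn5 far lower at 51.1, while Pecam1, with 2 features, had 0.446. The share of each cell type in the TRiC reads was not tested. More cells of a type and more RNA per cell cannot be told apart in such samples.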

How the data were processed

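Stranded libraries were made from total RNA of 16 retinas. Per the methods and labels the authors trimmed reads of 75 bases with Trimmomatic, mapped them with TopHat2 to NCBI build 37.2 and counted them with HTSeq by RefSeq transcript. The deposited signal used here is 1 mean per gene, made by the authors from the counts of every library after scaling with DESeq2 (1.22.2, R 3.5.1) size factors. The other columns of that table hold the authors' comparison of the groups (fold change, its error, statistic, p-values) and were not used. The 32 value columns of the count tables carry codes that match no sample label and were not used, so the planned tests of flight against ground control, the levels by library and the depth were not analysed here; from those tables only names were read.

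Lengths came from GENCODE M21 (GRCm38), matched by accession or else symbol for 20846 genes, and promoters from RefSeq (GRCm38.p6). Older symbols were matched through RefSeq synonyms. Values per kilobase are the mean divided by transcript length, and percentiles are over genes at 10 or more. Coding regions were translated and aligned end to end with Biopython 1.88 (BLOSUM62, gap scores -11 and -1, end gaps free). Motifs were sought on both strands, and the scripts were tested on simulated data. Named genes are the 9 members, for lists of over 6 genes the 4 highest and the lowest, smaller lists in full, and the gene on either side of each member in level. Some marker and neighbour values are not reported here. Members and lists were chosen with earlier results of these data known. Python 3.11.15, pandas 2.3.3 and matplotlib 3.10.9 were used.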

Additional observations from a re-analysis of the deposited data

How the results depend on the processing

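With coding length in place of transcript length the subunit median was 590.0 in place of 443 reads per kilobase, the ratio of highest to lowest subunit 2.28 in place of 2.33, Cct6a 422 in place of 274 reads per kilobase, and Pdcl 1.35 in place of 0.569 times the subunit median. The last of these passes from below to above the subunit median, by construction, as most of the Pdcl transcript lies outside its coding region. Prefoldin against TRiC also turned direction with coding length, and the ratios of Pdcl to Pdcl3, of Hspd1 to Hspe1 and of Gnat1 to Tcp1 moved by over 1.5 times, as given with each. With the mean in place of the median the subunits had 958 in place of 952 mean normalized counts and 429 reads per kilobase, and Pdcl 0.588 times that. The median percentile was 92.4 over all genes above 0 and, in an alternative chosen after seeing the data, 87.3 over genes with 1 counted feature, in place of 87.9. The shorter model of Cct6a, also chosen after seeing the data, gave it 421 reads per kilobase, above Cct3, and 216 times the reads per kilobase of Cct6b in place of 141 (193 by coding length), and left the subunit median, the ratio and the Pdcl value as they were. Identity over the shorter protein had a median of 32.4% in place of 33.8%, and with GAANNTTC alone 1 window in place of 4 held a heat shock element pair.

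No paired analysis was possible because the value columns match no sample, though titles of both groups share replicate numbers. For the same reason the planned DESeq2 fit, the fit without a filter, the replicate block and the stricter threshold were not run. Depth and spread behind each mean were not analysed here, so gaps between genes are given without an error.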
